A study of Mus musculus with 6 samples.

Results

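Late new regions were stretches of accessible chromatin that appeared in the peak list of NMuMG cells treated with BRM014 for 30 h and in neither of the other lists of the study. They were chosen by overlap: a 30 h region was taken when it shared no base with any region of the DMSO list and no base with any region of the 6 h list. This rule took 5736 of the 38422 regions in the 30 h list. The assay was ATAC-seq: a transposase, Tn5, cuts DNA where it is accessible and inserts sequencing adapters at the cuts. NMuMG is an established line of epithelial cells from normal mouse mammary gland, and all cells were labelled as wild type. Each of 3 groups had 2 biological replicates: cells given the solvent DMSO, cells given BRM014 for 6 h, and cells given BRM014 for 30 h. The authors made 1 list from both replicates of a group, so no spread between replicates could be set beside any value. The name of the DMSO list gives 30 h, and no DMSO list of 6 h was used here. The extraction protocol also speaks of cells given TGFβ, which no sample label carries.

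BRM014 inhibits BRM and BRG1, the ATPases that drive the SWI/SNF (BAF) complexes. These complexes slide or eject nucleosomes, and in many cell types they are needed to keep enhancers accessible to transcription factors. Sites that gain accessibility while SWI/SNF is inhibited are therefore of interest, as are the times at which they do so. "Late" and "new" here describe lists from separate cultures, not cells followed over time, and a region that was not called is not the same as closed chromatin. No genome or gene annotation of the build mm9 was used here, so regions are given by position, without sequence and without gene names.

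The 30 h regions fell into 4 classes. Called in all 3 lists were 23008 regions (59.9%), and 8520 (22.2%) were shared with DMSO but not with 6 h. Another 1158 (3.01%) were new at both times, and the late new regions made up the remaining 14.9% (95% Wilson interval 14.6 to 15.3%). Those intervals cover counting error between regions and nothing else. Which portion of the new regions was larger depended on the length of the lists. Of the whole 30 h list, 17.9% had no DMSO region and 37.1% had no 6 h region. Among the 6894 regions without a DMSO region, 83.2% also lacked a 6 h region (82.3 to 84.1%). Both shares were lower when each list was shortened to the strongest 25922 regions, the length of the 6 h list: the late new regions were then 9.13% of 30 h regions and 47.1% of the new ones, so that they were no longer the larger portion. Shortening dropped DMSO regions too, so a 30 h region could count as new there because its DMSO region was dropped. By length the late new regions held 9.76% of the bases in the 30 h list, since they were narrow. In the other direction 26.1% of DMSO regions had no 30 h region, and 10040 DMSO regions (23.7%) were called in neither treated list.

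Late new regions were weak by the authors' fold enrichment and -log10 q, and a smaller share of them had the authors' highest score. Their fold enrichment, the authors' ratio of reads at the summit to the local background, had a median of 9.15, with quartiles of 7.53 and 11.3. Regions new at both times had a median of 11.0, those shared with DMSO but not with 6 h one of 10.3, and those in all lists one of 15.0. The -log10 q of the late new regions had a median of 29.0 and ran from 0.430 to 176. Its median was 42.0 in the regions new at both times, 41.3 in those shared with DMSO alone, and 120 in those called in every list. The authors' score stood at its highest value of 1000 in 698 late new regions (12.2%), against 35.3% of the regions new at both times and 86.7% of those in all lists. That score did not simply follow strength, since it was also 1000 in 13 of the 39 late new regions with a -log10 q below 5. What it measures was not examined here. Strength in the 30 h list helps to decide whether a region is called, so these values describe the class and test nothing.

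Ranked on -log10 q within the 30 h list, the late new regions were concentrated at the bottom. They were 55.8% of the weakest decile (54.2 to 57.4%), 39.4% of the next and 26.2% of the third. Their share was 7.96% in the fifth decile and 0.651% in the seventh. The 2 weakest deciles together held 37.4% and 26.4% of all late new regions. Above the seventh decile there were 3 in the eighth, 1 in the ninth and 0 of 3843 in the strongest, where a count of 0 allows a share of up to 0.0781% (3 counts). The share of new regions without a 6 h region moved along the same scale. Of the new regions in the weakest decile 94.5% lacked a 6 h region, and this fell to 62.7% in the fifth decile and 37.9% in the seventh. Stronger new regions thus more often had a 6 h region.

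**Figure D1:**
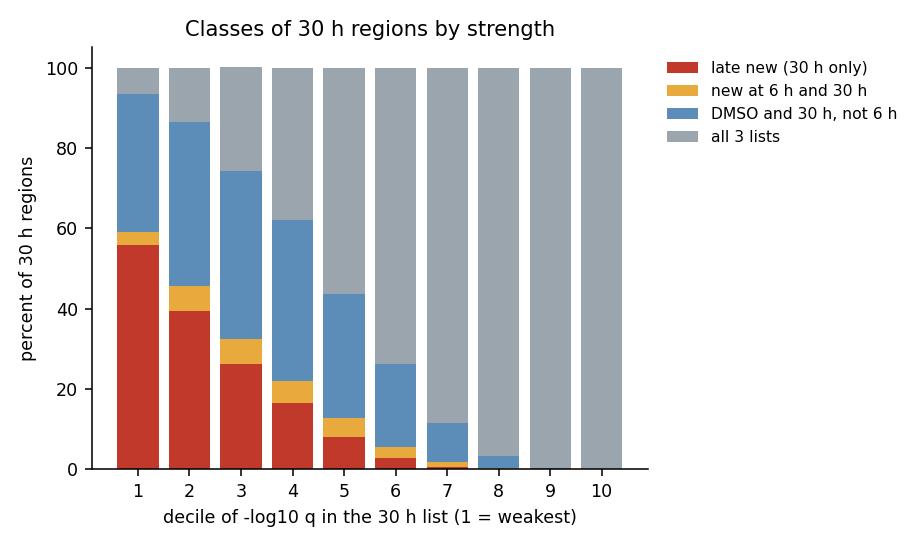
Percent of 30 h regions in each class (vertical axis) by decile of the authors' -log10 q in the 30 h list (horizontal axis, decile 1 the weakest). Late new regions were 55.8% of the weakest decile and 0.651% of the seventh, while regions called in all 3 lists took over towards the strongest.

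The lists differed in depth. Relative depth was recovered from the lists themselves as the lowest local background, which for the 30 h list came to 80.7% and for the 6 h list to 63.0% of the DMSO value. The pileup of a region is the number of reads stacked at its summit, and multiplied by a ratio of depths it gives the pileup expected in another list. Late new regions had a median pileup of 45.0 reads in the 30 h list. At the depth of the DMSO list 55.7 reads would be expected, and at that of the 6 h list 35.1. Of the late new regions 88.0% had an expected pileup at or above the 5th percentile of DMSO pileups, 39.0 reads. Only 3.84% were at or above the DMSO median of 129. For the 6 h list 63.9% were at or above the 5th percentile of 31.0 reads, and 3.33% at or above the median of 85.0. These counts rest on pileup and on the recovered depths alone, while local background also enters a call, and the part of depth in the absence of a region was not tested.

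At equal expected pileup, new regions had a 6 h region less often than 30 h regions shared with DMSO. Both properties belong to the rule, and the comparison is not a test of depth. In bins of the pileup expected at 6 h depth, 83.2% of new regions lacked a 6 h region, against 64.6% of shared regions weighted to the same bins. The difference was 18.6 percentage points (17.4 to 19.9). It was 49.2 points when every entry was counted without merging. The 49.2 is not a like measure, since a faint summit then kept its own pileup but the interval of its whole region. The difference between merged regions grew with pileup, but local background and fold enrichment were not matched. At 64 or more expected reads, late new regions had a median background of 17.9 and a median fold enrichment of 5.58. Regions shared with DMSO but not with 6 h had 11.5 and 9.05 there. Between 22.6 and 32 expected reads, 7.25% of new and 19.0% of shared regions were called at 6 h. Between 64 and 90.5 reads the shares were 30.2% (26.6 to 34.0%) and 72.1% (70.8 to 73.3%), and in the bin ending at 181 reads they were 36.7% (24.7 to 50.7%) of 49 regions and 96.2% of 4354. Shared regions had been called in 2 lists already and new regions in 1. DMSO regions without a 30 h region match the new regions in number of calls but not in treatment. They come from cells without BRM014, while the 30 h and 6 h lists both come from cells given it. Such DMSO regions were called at 6 h less often still. At equal expected pileup 92.1% of them lacked a 6 h region, and the new 30 h regions minus these gave -8.82 points (-9.83 to -7.81). Between 64 and 90.5 reads 11.7% of them were called at 6 h. Each of these shares draws on the same lists that define the classes, so they describe the late new regions and do not test them.

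**Figure D2:**
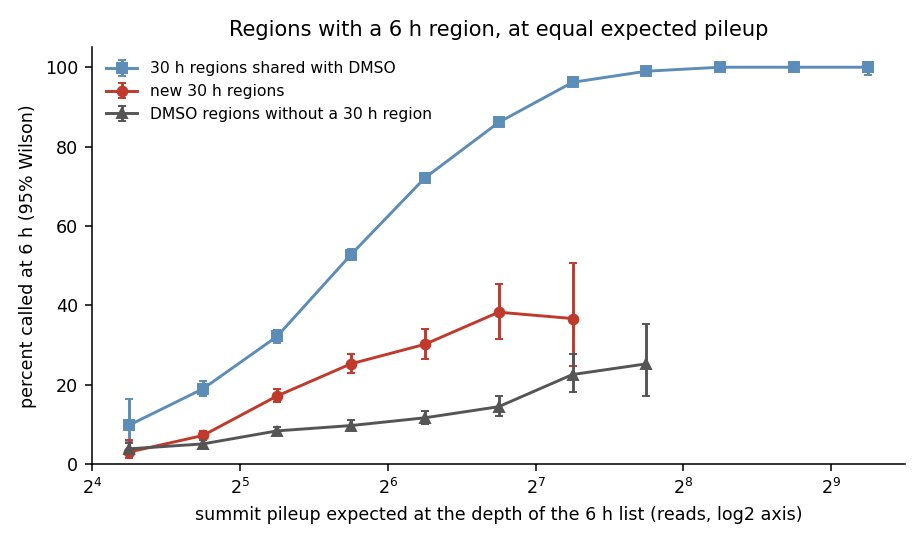
Percent of regions with an overlapping 6 h region (vertical axis, bars are 95% Wilson intervals) against the summit pileup scaled to the depth of the 6 h list (reads, log2 axis), in bins with at least 20 regions. New 30 h regions reached 30.2% between 64 and 90.5 reads, below the 72.1% of regions shared with DMSO and above the 11.7% of DMSO regions without a 30 h region.

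Absence from the DMSO list was likewise compared at equal pileup. With pileups expected at the depth of DMSO, 16.9% of 30 h regions had no DMSO region, against 9.19% of 6 h regions in the same bins, a difference of 7.74 points (7.24 to 8.23). Between 45.3 and 64 reads, where the median late new region lay, these shares were 44.5% (43.2 to 45.8%) and 27.8% (26.2 to 29.4%). In the bin ending at 181 reads they were 5.43% and 2.04%. Between 362 and 512 reads 0 of 2631 30 h regions lacked a DMSO region, which allows a share of up to 0.114%. Regions at 30 h were missing from DMSO more often than regions at 6 h in each bin from 32 to 256 reads. Absence from DMSO is part of the rule for late new regions, so these shares describe the lists and test nothing. Local background was not matched between the lists.

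Late new regions were narrow and mostly had a single summit. Their width had a median of 397 bp, with quartiles of 292 and 516 bp, against 452 bp for regions new at both times, 492 bp for those shared with DMSO but not with 6 h, and 726 bp for those in all lists. The most frequent widths were 250 to 300 bp, with 16.9% of late new regions, and a lower second rise held 11.8% between 400 and 450 bp. A single summit was found in 4504 (78.5%, 77.4 to 79.6%), 2 summits in 1042 (18.2%) and at least 3 in 190 (3.31%). Both features go with strength, so they were also compared within deciles of -log10 q, weighted equally over the 7 deciles with at least 20 regions of each class. Single summits then made up 73.8 ± 3.14% of late new regions (95% interval), 67.5 ± 3.25% of those new at both times and 67.5 ± 1.14% of those shared with DMSO alone. The late new share was higher than the first by 6.40 points (1.88 to 10.9) and than the second by 6.38 points (3.05 to 9.72).

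Among late new regions with 1 summit the width had a median of 345 bp, against 423 bp for such regions shared with DMSO alone. In the weakest decile the median width was 348 bp for late new regions, 331 bp for regions new at both times, 429 bp for those shared with DMSO alone and 446 bp for those in all lists. In the fifth decile these medians were 462, 460, 519 and 597 bp. Weighted over deciles, 38.2 ± 2.59% of late new regions were under 400 bp wide, 11.3 points more than those shared with DMSO alone (8.53 to 14.1). The difference from regions new at both times, 1.22 points, had an interval from -2.73 to 5.16. At like strength no difference in narrowness between the kinds of new region was therefore resolved. Where late new regions had several summits, neighbouring summits lay a median of 267 bp apart, close to the 265 bp of regions new at both times and below the 296 bp of regions in all lists. The summits beside the strongest of their region were often faint: 650 of 1447 had a -log10 q below 5. This count was made for late new regions only, so it is not shown to be particular to them.

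**Figure D3:**
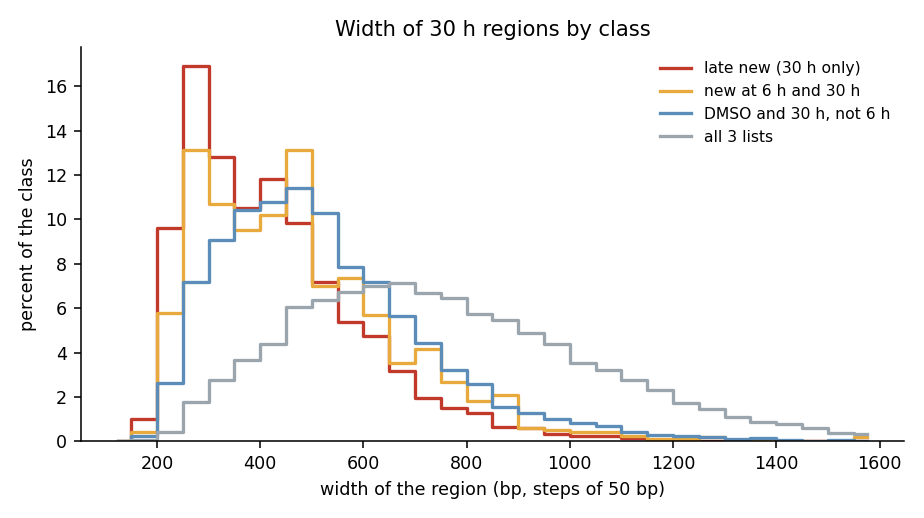
Distribution of region width (horizontal axis, bp, in steps of 50 bp) as a percent of each class (vertical axis). Late new regions peaked at 250 to 300 bp with 16.9% of the class, and regions in all 3 lists had a median of 726 bp.

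Most late new regions stood on quiet ground. The local background at a summit is the read level against which the authors' caller judged it, and it was recovered from the deposited fold enrichment and p. It had a median of 3.19 reads in late new regions, close to the lowest value of the list, 2.72, and medians of 4.29 in regions shared with DMSO alone and 9.90 in those in all lists. At the lowest background stood 2191 late new regions (38.2%, 36.9 to 39.5%), 24.2% of regions new at both times and 19.8% of those shared with DMSO alone. Within deciles of -log10 q the late new share was 26.1 ± 1.97%, 9.09 points above the regions shared with DMSO alone (6.99 to 11.2) and 4.87 points above those new at both times (1.95 to 7.80). Read the other way, 44.5% of all 30 h regions at the lowest background were late new (43.1 to 45.9%), but 4.88% of those at a background of 16 or more (4.41 to 5.39%).

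Background and distance from DMSO regions went together in the late new regions. They are not independent measures, since local background is drawn from reads around a summit and an accessible region nearby can raise it. The gaps by background therefore describe the classes and test nothing. The 2191 at the lowest background had a median gap of 22332 bp to the nearest DMSO region, a median pileup of 36.0 reads and a median fold enrichment of 9.95. The 359 at a background of at least 16 had a median gap of 988 bp, a median pileup of 104 reads and a median fold enrichment of 4.29, and were 295 bp wide in the median. Within 10 kb of a DMSO region lay 22.2% of the first and 98.3% of the second. In regions shared with DMSO but not with 6 h the median gap to another DMSO region also fell with background, from 16618 bp to 1084 bp, but less steeply. By median gap, late new regions lay farther from DMSO regions than these in both classes of background below 4 and nearer from 4 upwards. No intervals were made for these medians, and some differences were small. Above the lowest background and below 4 the medians were 12718 and 11900 bp. At 16 and above, 98.3% (96.4 to 99.2%) and 97.4% lay within 10 kb. Between 4 and 8 the median gaps were 4569 bp for late new regions and 6539 bp for the shared ones, with 73.9% and 65.2% within 10 kb. Between 8 and 16 they were 1668 and 2083 bp, with 96.4% and 92.3% within 10 kb.

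**Figure D4:**
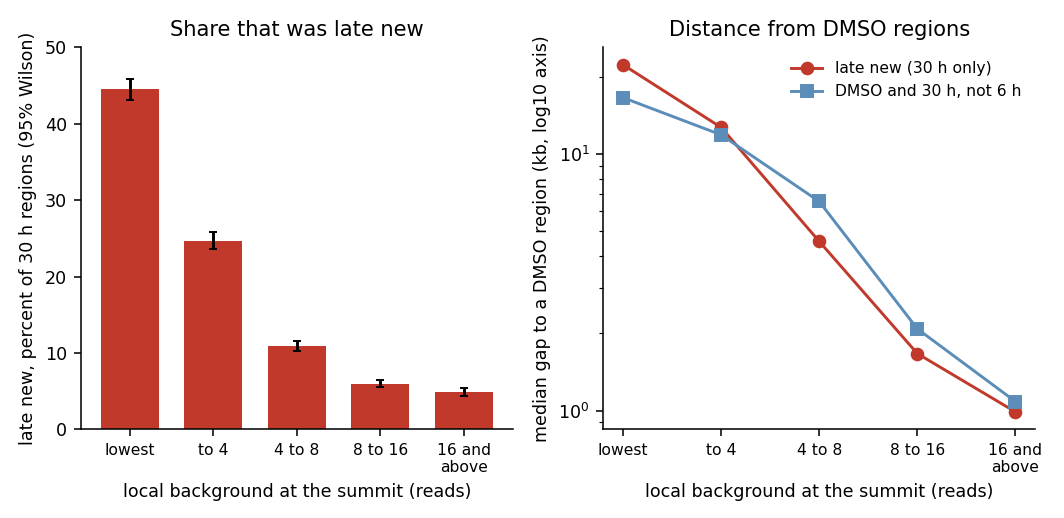
Left, late new regions as a percent of all 30 h regions (bars, 95% Wilson intervals) by local background at the summit in reads, falling from 44.5% at the lowest background to 4.88% at 16 and above. Right, median gap to the nearest DMSO region in kb (log10 axis) for late new regions and for regions shared with DMSO but not with 6 h, whose gaps shrank together as background rose.

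Pileup rises with both enrichment and background, so regions chosen by pileup tend to have a high background. At 6 h depth, an expected pileup of at least 64 reads was reached by 556 of them (9.69%). Their median background was 17.9 reads, their median fold enrichment 5.58, and 500 of the 556 (89.9%) lay within 10 kb of a DMSO region, against 80.3% of the 2315 regions shared with DMSO alone at such pileups. At least 2 times 64 reads were expected for 31, 30 of them within 10 kb and 22 within 1 kb of a DMSO region, with a median gap of 583 bp and a median fold enrichment of 5.45. Of the 201 regions shared with DMSO alone at that pileup, 37.8% lay within 1 kb of another DMSO region. These are medians, and single regions went against them, such as chr8:129391293-129391988, with 182 reads over a background of 8.32 and 13455 bp from a DMSO region. The part of neighbouring signal was not tested.

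Over all backgrounds together, late new regions lay farther from DMSO regions than other 30 h regions did. At backgrounds of 4 and above, however, their median gap was smaller than that of regions shared with DMSO alone, without intervals. The gap to the nearest DMSO region that a region did not itself overlap had a median of 10263 bp in late new regions, with quartiles of 3476 and 27196 bp. It was 8658 bp for regions new at both times, 7222 bp for those shared with DMSO alone and 7892 bp for those in all lists. Within 10 kb of such a DMSO region were 2834 late new regions (49.4%, 48.1 to 50.7%), against 59.9% (58.8 to 60.9%) of those shared with DMSO alone. Over 100 kb away were 345 (6.01%), against 2.88% and 2.49% of the 2 shared classes. Within deciles of -log10 q the share within 10 kb was 48.3 ± 3.30%, which minus that of regions shared with DMSO alone gave -11.9 points (-15.4 to -8.40), and minus that of regions in all lists -11.3 points. The difference from regions new at both times was -4.74 points, with an interval from -9.49 to 0.0190. The rule keeps late new regions off DMSO regions but sets no distance, and a region overlapping a DMSO region was measured here to the next one.

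**Figure D5:**
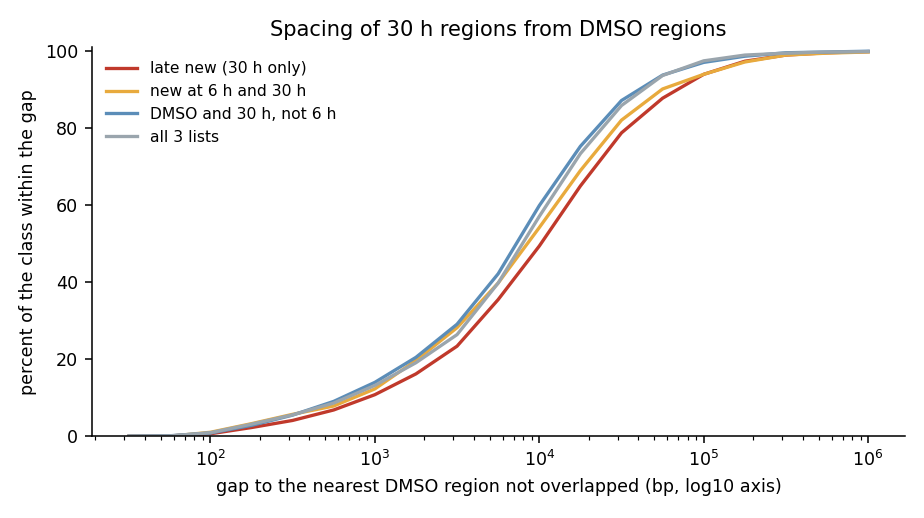
Cumulative percent of each class (vertical axis) within a given gap of the nearest DMSO region it does not overlap (horizontal axis, bp, log10 axis). At 10 kb the curve of late new regions stood at 49.4% and that of regions shared with DMSO but not with 6 h at 59.9%.

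The DMSO regions nearest to late new regions were mostly ones that stayed in the 30 h list. This was so for 4467 of 5736 (77.9%, 76.8 to 78.9%), against 74.6% (73.6 to 75.5%) for regions shared with DMSO alone and 75.7% for those in all lists. Within deciles of -log10 q the difference from regions shared with DMSO alone was 5.45 points (3.36 to 7.54). Late new regions thus did not lie next to lost DMSO regions more often than other 30 h regions did.

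Gathering of late new regions among themselves was slight. Within 10 kb of another late new region lay 647 of them (11.3%, 10.5 to 12.1%). Regions of the other classes had a late new region within 10 kb about as often, in 11.3% of those new at both times, 11.4% of those shared with DMSO alone and 10.9% of those in all lists. The nearest 30 h region was late new for 16.8% of late new regions (15.9 to 17.8%), for 13.3% (12.6 to 14.0%) of those shared with DMSO alone and for 13.8% of those in all lists. A median of 78761 bp separated a late new region from the next one. The larger set of 10040 DMSO regions called in neither treated list had 21.3% within 10 kb of another of its kind.

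Runs of late new regions with no other 30 h region between them, and no gap over 50 kb, took in 1228 of the 5736 (21.4%). There were 580 runs, of which 525 were pairs, 45 held 3, 7 held 4 and 3 held 5. Runs were counted for late new regions only, so these numbers stand without a comparison. The tightest run of 5 spanned 43.3 kb at chr4:32374935-32418227. Its members had -log10 q values of 19.1, 20.2, 38.2, 20.3 and 22.3, and the 1 DMSO region inside it was missing at 30 h. The run at chr3:94306056-94368881 spanned 62.8 kb and held no DMSO region, with -log10 q from 19.3 to 31.8 and the nearest DMSO region 322 bp from one end. Both runs were made of weak regions. The third, chr16:26371752-26448226, was stronger and far from DMSO regions. Its 5 members spanned 76.5 kb, its -log10 q values were 26.0, 60.4, 32.3, 42.2 and 86.4, its fold enrichments ran from 9.76 to 17.5, and the nearest DMSO region lay 133077 bp away.

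Among the chromosomes, 1 to 19 and X, late new regions made up 12.8% of 30 h regions on chromosome 17 (11.3 to 14.6%) at the lowest and 17.0% on chromosome 16 (15.1 to 19.1%) at the highest, around 14.9% in all. Chromosome 3 followed at 16.6% and chromosome 15 at 16.1%, while chromosome 14 stood at 13.3% and chromosome 12 at 13.7%. With equal weights over the 5 weakest deciles of -log10 q, chromosome 16 was at 33.0 ± 3.27%, chromosome 19 at 32.1 ± 3.21% and chromosome 12 at 24.3 ± 2.98%. Chromosome 17, at 26.5 ± 2.86%, then no longer came last. Per Mb between the first and last 30 h region, late new regions numbered 3.82 on chromosome 19 and 0.884 on the X chromosome. As a share of the 30 h regions there they were 14.4% (222 of 1546) and 15.4% (142 of 922), both near the 14.9% in all.

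In windows of 1 Mb, 1787 of the 2290 windows with a 30 h region held at least 1 late new region. Among the 756 windows with at least 20 regions in both the 30 h and the DMSO list, the median share of late new regions was 13.5%, with quartiles of 9.09 and 18.5%, and 19 windows had none. The most late new regions, 14 of 51, were at chr6:134000001-135000000 (27.5%, 17.1 to 40.9%). Next came 13 of 48 (27.1%) at chr6:29000001-30000000, 13 of 50 (26.0%) at chr4:88000001-89000000 and 13 of 79 (16.5%, 9.88 to 26.1%) at chr19:10000001-11000000. The last share was near the 14.9% over all 30 h regions. Ranking by count favours windows with many 30 h regions, and the intervals take no account of picking the extremes. The window at chr4:32000001-33000000, which contains the tightest run of 5, held 12 of 26 (46.2%, 28.8 to 64.5%). With 19 DMSO regions it was not among the 756 windows above, and it tied with 12 of 48 at chr1:193000001-194000000 and 12 of 51 at chr5:91000001-92000000. Of the DMSO regions, 15 of 50, 5 of 39, 8 of 45, 9 of 71 and 6 of 19 were missing at 30 h in the first 5 of these windows, beside 26.1% over all DMSO regions.

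The 10 late new regions of highest fold enrichment were spread over 9 chromosomes, and all 10 had the highest score of 1000. The first, chr15:13314560-13314981, had 157 reads at its 1 summit, a -log10 q of 176 and a fold enrichment of 28.8. The nearest DMSO region was 5976 bp away and the nearest 6 h region 15627 bp. At equal accessibility 194 reads would have been expected in the DMSO list and 123 in the 6 h list, above the medians of those lists. It was the 1 late new region in the ninth decile of -log10 q.

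The second was chr7:50678405-50678877, with 109 reads and a -log10 q of 119 at an enrichment of 25.3, 19731 bp from a DMSO region. The third, chr12:55975722-55976111, stood at 24.5 with 90 reads over the lowest background of the list. The fourth, chr14:120868508-120869005, stood at 23.4 and lay 70670 bp from a DMSO region. All 3 lay over 10 kb from any other region of the 3 lists. A pair followed on chromosome 16, chr16:44002013-44002542 at a fold enrichment of 22.9 and chr16:11297640-11298318 at 22.6, both with 87 reads and 2 summits. The others were chr1:38165440-38166029 at 22.3, chr10:30498024-30498426 at 22.1, chr18:75070351-75070868 at 21.2 and chr3:83090835-83091293 at 20.5. The last of these lay 158666 bp from any DMSO region but 12300 bp from another 30 h region. Backgrounds of the 10 ran from 2.72 to 4.49 reads, and their -log10 q values from 78.5 to 176.

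By -log10 q only 2 of these 10 stayed among the first 10, the regions on chromosomes 15 and 7. The second by this measure was chr8:129391293-129391988, with a -log10 q of 168, a fold enrichment of 19.6 and 182 reads, 13455 bp from a DMSO region. The next 3 stood on high backgrounds, and all had fold enrichments below 12.6, the median of the whole 30 h list. They were chr5:24333000-24333590, at a -log10 q of 122 and a fold enrichment of 12.4, chr8:74191994-74192352, at 121 and 10.9, and chr18:75653008-75653442, at 120 and 11.7. The DMSO list would have been expected to show 209, 227 and 214 reads there, and its nearest regions were 5273, 1996 and 775 bp away. The rest were chr7:142743043-142743644 at a -log10 q of 117, chr15:62092862-62093496 at 114, chr18:50256054-50256711 at 109 and chr2:58894981-58895575 at 108. The last of these was 10092 bp from a DMSO region but 102906 bp from a 6 h region.

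The widest late new regions were not the strongest. The first, chr18:9503616-9505535, was 1920 bp wide with 4 summits, a -log10 q of 37.6 and a fold enrichment of 5.21. The second, chr2:75507224-75508909, was 1686 bp wide and had the most summits, 6, at a -log10 q of 15.7. The third, chr17:21615039-21616578, was 1540 bp wide with 5 summits and a -log10 q of 37.5. With 5 summits as well, chr11:88479339-88480647 had 126 reads at its strongest and a DMSO region 865 bp away. The first of these also belonged to a run of 4 late new regions within 20.3 kb, chr18:9485270-9505535, which held no DMSO region.

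The most isolated late new regions were faint. The farthest, chr3:72869911-72870426, lay 2258445 bp from the nearest DMSO region and had 36 reads, a -log10 q of 25.8 and a fold enrichment of 9.95. The next, chr6:44976203-44976604, was 1349383 bp away with 33 reads, and chr8:103296653-103297152 was 1328834 bp away with 35 reads. All 3 stood at the lowest background, with scores of 638, 613 and 585.

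At the border of the rule were regions with a DMSO region close by. Within 50 bp of a DMSO region lay 5 late new regions, and within 100 bp 37. The nearest were chr11:12342734-12342927, 19 bp away with 10 reads and a -log10 q of 1.22, chr19:44973645-44974236, 34 bp away with 74 reads and a -log10 q of 41.9, and chr13:37404200-37404400, 41 bp away with 7 reads and a -log10 q of 0.430. On the other side of the DMSO overlap were the 30 h regions that shared the fewest bases with a DMSO region. They were chr6:49528987-49529306, sharing 43 bp at a -log10 q of 18.5, chr16:38793659-38793892, sharing 69 bp at 0.837, and chr7:97207866-97208015, sharing 84 bp at 3.20. The regions on chromosomes 6 and 16 also overlapped a 6 h region, so they would not be late new whatever their DMSO overlap. At most 50 bp were shared by 1 region of the whole 30 h list, and 0 of such regions lacked a 6 h region. A DMSO region lay within 500 bp of 354 late new regions (6.17%), and a 6 h region within 500 bp of 218 (3.80%), with both in 197.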

How the data were processed

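Peak lists came from 6 ATAC-seq samples of NMuMG cells. Each list was made by the authors from both replicates of a group, per the labels. Per the submitters' processing notes, the caller was MACS2 2.1.2 and the genome mm9. The aligner, read filters, any transposase shift and the caller's options are not given in the sources used here. The deposited values per entry were a score from 540 to 1000, a fold enrichment (a ratio), a -log10 p, a -log10 q and a summit offset. They were used to describe and rank regions within a list.

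Entries sharing an interval were merged into 1 region, keeping their highest values and the summit with the highest -log10 q. Overlap meant at least 1 bp. Gaps run from edge to edge. Pileup and background were solved from 2 deposited values, fold enrichment and -log10 p, under the caller's default formulas, an assumption; they matched within 0.001 for 100% of entries. The lowest background, 3.37 for DMSO, 2.12 at 6 h and 2.72 at 30 h, was taken as relative depth; read totals were not analysed here. Bins of expected pileup, 4 per doubling, needed at least 50 regions of each kind; shares shown for single bins use 2 per doubling. Intervals are 95% Wilson, or from binomial variances for differences and weighted shares. They take each region as independent. Treatments were not tested against each other, since each group had 1 list. Steps were tested on simulated data. Python 3.11.15, numpy 2.4.6, pandas 2.3.3 and scipy 1.17.1 were used.

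The members, comparisons and named regions were chosen with earlier results of these data known. Named were the 10 late new regions highest in fold enrichment and the 10 highest in -log10 q, and 3 each that were widest, had most summits, lay farthest from DMSO or lay on either side of the overlap rule. The 3 longest runs and the 5 windows with most late new regions, with ties, were also named. The run of 4 on chromosome 18, the classes of background and of high pileup, the nearest-neighbour classes and summit spacing were added after values were seen. Alternatives changed the overlap rule, merging, threshold, list length and depth. The planned look at sequence content was not run, as no mm9 genome was used here.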

Additional observations from a re-analysis of the deposited data

How the results depend on the processing

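Of 71 values under the alternatives, 28 stayed within the 95% interval of the value reported and 43 moved out of it. The summit rule moved none. No paired analysis was possible because the replicates were pooled into 1 list a group, so that neither could be left out. The values are given in the order: late new share of 30 h regions, late share of new regions, difference between new and shared regions at equal expected pileup in points, share within 10 kb of a DMSO region, share with a single summit, median width, median fold enrichment, and share within 10 kb of another late new region. As reported they were 14.9%, 83.2%, 18.6, 49.4%, 78.5%, 397 bp, 9.15 and 11.3%, for 5736 regions. Values not given below stayed within their interval. With an overlap of at least 50%, the first was 15.5%, single summits 76.4% and width 403 bp. With regions within 500 bp shared, the first was 14.0%, the share near DMSO 46.0% and fold enrichment 9.42. With entries left unmerged they were 10.7%, 81.9% and 49.2, then single summits 100% by construction, 444 bp and 8.46. With a score of 1000 in every list, which gave 2663 late new regions, they were 11.1%, 90.7%, 17.1, 42.1%, 64%, 504 bp, 13.6 and 6.38%. This set was not a subset of the 5736, of which 698 had a score of 1000. The filter also dropped DMSO and 6 h regions, so 30 h regions that had overlapped a dropped one could count as late new. With a -log10 q of at least 5, single summits were 87.5%, since faint second summits drop out. With every list as long as the shortest, which gave 2366, they were 9.13%, 47.1%, then 39.1%, 67.7%, 491 bp, 13.6 and 6.30%, so that late new regions were under 50% of the new regions and not the larger portion. These were again not a subset of the 5736, since the DMSO list was shortened too. With at least 64 reads expected at 6 h depth, which left 556, they were 2.53%, 67.6%, 42.6, 89.9%, 81.5%, 352 bp, 5.58 and 9.89%. With at least 2 times 64, which left 31, they were 0.278%, 62.0%, then 96.8%, 90.3%, 359 bp, 5.45 and 6.45%, and the difference could not be had, since no bin held 50 new regions. The alternatives changed which regions were kept or counted as late new, and the cause of the moves was not tested beyond that.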

Other observations

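The faintest late new regions had a common position. A -log10 q below 5 was found in 39 of the 5736 (0.680%), against 67 of all 38422 regions at 30 h (0.174%). All 39 lay within 500 bp of another 30 h region, where 6.45% of all late new regions lay (370 of 5736). That other region was shared with DMSO for 22 of the 39, and for 274 of the 370. Faint 30 h regions outside the late new class were not counted by distance, so the position is not shown to be particular to late new regions. The faint regions chr16:38793659-38793892 and chr7:97207866-97208015, both shared with DMSO, also lay 88 and 104 bp from another 30 h region. The authors' score stood at 1000 in 13 of the 39 (33.3%), and in 29 of the 67 faint regions of the whole 30 h list (43.3%). These are values within the lists, and no cause was tested.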
